A study of Rattus norvegicus with 16 samples.

Results

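Transcripts of 10 genes that mark the adipocyte, the fat-storing cell, were followed in rat rotator cuff muscle after injury. The 10 genes are Adipoq, Lep, Cfd, Retn, Pparg, Cebpa, Fabp4, Pck1, Lpl and Lipe. They were taken by symbol from a table of 17147 genes, and all 10 were present and passed the filter on low counts. The tissue was the supraspinatus, a shoulder muscle, of Sprague Dawley rats. The unoperated controls (0 days) were compared with rats sampled 10, 30 or 60 days after an operation on both shoulders. The operation combined a full-thickness supraspinatus tear with removal of a stretch of the suprascapular nerve, which supplies this muscle. Each group held 4 libraries of mRNA, and the age of the rats is not given in the labels used here. No unoperated muscle was sampled at 10, 30 or 60 days, so time after the operation and time alone cannot be told apart. The labels do not say which libraries share a rat, so p-values measure the spread between these samples, which may in part be technical.

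Adipocytes are a minor cell type of healthy muscle, and fat cells build up in rotator cuff muscle after tears and loss of nerve supply. In the adipocyte, the transcription factors PPARG and C/EBPA switch on the genes of lipid storage and of the hormones that mature fat secretes. Some of these genes are also used elsewhere in muscle: Lpl and Lipe act in muscle fibres, and Fabp4 is abundant in capillary endothelium. In whole muscle, a change in the number of cells of a type and a change in RNA per cell cannot be told apart.

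The data showed a late rise of the genes for secreted adipocyte proteins. Adipoq, Lep, Cfd and Retn were not called at 10 or 30 days and were 2.56- to 4.15-fold higher than in unoperated muscle at 60 days. Cebpa was higher at all 3 times. Pparg, Fabp4, Lpl and Lipe fell at 10 and 30 days, but several of these falls depended on the scaling. With library totals as the scale, Lpl was 0.067 higher at 10 days on the log2 scale and not called. The falls of Pparg at 10 days (-0.27) and 30 days (-0.13) and of Fabp4 at 30 days (-0.055) were then not called either. Upper-quartile factors also lost both 30-day calls. At 60 days none of Pparg, Fabp4, Lpl and Lipe was called against 0 days, whereas with library totals Pparg (0.77) and Fabp4 (0.74) were called higher. Levels are counts scaled to a fixed library total (CPM) with TMM factors, which set libraries to the same level for most genes. They are not divided by gene length, so levels are compared between groups and not between genes. The word called stands for an adjusted p under 0.05 in edgeR's quasi-likelihood test over 11658 genes.

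Library totals ran from 17.2 to 39.9 M fragments, and those at 60 days, 17.2 to 22.4 M, lay below all others. TMM factors ran from 0.750 to 0.775 at 0 days and from 1.18 to 1.24 at 10 days. Scaling by library totals in place of TMM shifted the median over all genes by 0.66, 0.49 and 0.41 on the log2 scale at 10, 30 and 60 days against 0 days. Upper-quartile factors shifted it by 0.12 and 0.14 at 30 and 60 days. A fold change here is thus a change beside most other genes. Muscle fibre markers were present in every library, with a summed level of 289701 to 315132 CPM at 0 days and 166807 to 191242 CPM at 60 days. The smallest count of a member was 9 fragments, of Retn in replicate 1 at 0 days (0.392 CPM of the library total, 95% Wilson interval 0.206 to 0.745 CPM). Such intervals cover counting error only, since PCR copies are not independent molecules.

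At 10 days, 1 of the 10 members was higher than at 0 days, against 33.3% of all genes tested. At that time 4 members were lower, against 29.4% of all genes, and 4 had groups that did not overlap, against 59.0%. At 30 days, 1 member was higher (33.7% of all genes), 4 were lower (30.9%) and 5 did not overlap (60.2%). At 60 days, 5 members were higher (29.9% of all genes), 0 were lower (29.1%) and 4 did not overlap (50.0%). The median log2 fold change of the members was -0.63 at 10 days, -0.58 at 30 days and 1.35 at 60 days, while that of all genes was 0.061, 0.046 and 0.040. Under library totals the members' median was 0.028, -0.092 and 1.77 at these times, while that of all genes was 0.72, 0.54 and 0.45. The counts were then 1 higher and 2 lower at 10 days, 2 and 2 at 30 days, and 8 and 0 at 60 days. All 11658 genes gave 8166 and 1182, 7362 and 1392, and 6738 and 1407 on that scale. More members were called between 30 and 60 days than between 10 and 30 days. From 10 to 30 days 1 member was called higher and 0 lower, with 1 not overlapping, against 23.0%, 24.3% and 43.8% of all genes. With library totals 0 were higher and 1 was lower (Lpl, -0.48, edgeR adjusted p = 0.0159). All 11658 genes then gave 1533 higher and 4021 lower. From 30 to 60 days 8 members rose and 0 fell, and 9 did not overlap, against 10.3%, 12.4% and 20.1% of all genes. From 10 to 60 days 9 members rose and 0 fell, and 9 did not overlap, against 29.1%, 31.9% and 51.2%. The joint test of the 4 times called 10 of 10 members, but it also called 84.7% of all genes. Comparisons that use the same group share its libraries and are not independent of each other.

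**Figure D1:**
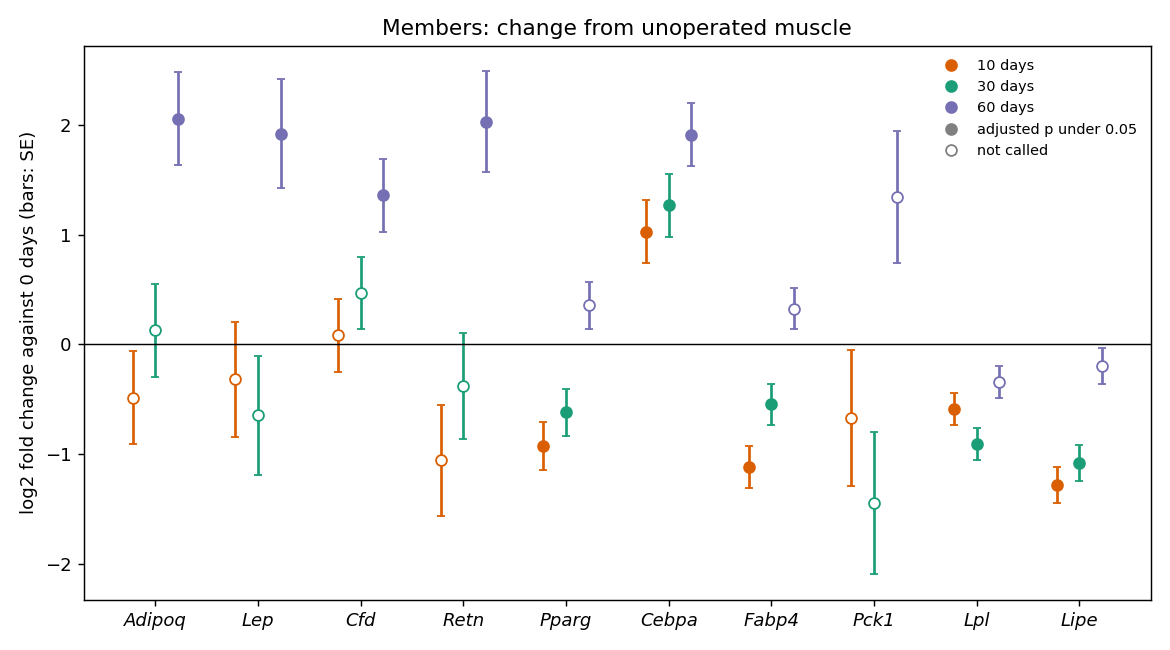
The plot gives the log2 fold change of each member against 0 days at 10, 30 and 60 days, with bars of 1 SE. Filled points were called by edgeR (adjusted p under 0.05). At 60 days the filled points are Adipoq, Lep, Cfd, Retn and Cebpa, from 1.36 to 2.05, while Pparg, Fabp4, Lpl and Lipe have filled points below 0 at 10 and 30 days. With library totals in place of TMM, the 10-day value of Lpl is 0.067. The falls of Pparg at 10 and 30 days and of Fabp4 at 30 days are then not called.

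Promoter sequences of 7 of the 10 members were found in the RefSeq promoter table of the rat assembly GRCr8. The table had no entry for Fabp4, Lpl or Lipe. The 250 bases before the start are shown for Adipoq, Lep, Cfd, Retn and Pck1, because these 5 genes varied together between libraries, as described further on. They lie at chr11:91240170-91240419, minus strand (Adipoq), chr4:58626288-58626537, plus strand (Lep), chr7:10465497-10465746, minus strand (Cfd), chr12:6508524-6508773, plus strand (Retn) and chr3:182348322-182348571, plus strand (Pck1). The sequences run 5′ to 3′ on the gene's strand, and capitals mark matches to the motifs named after them.
Adipoq: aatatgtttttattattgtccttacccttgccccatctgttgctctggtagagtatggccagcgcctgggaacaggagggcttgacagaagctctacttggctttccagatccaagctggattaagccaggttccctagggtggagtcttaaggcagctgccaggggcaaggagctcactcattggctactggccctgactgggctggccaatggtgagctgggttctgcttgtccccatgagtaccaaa
Lep: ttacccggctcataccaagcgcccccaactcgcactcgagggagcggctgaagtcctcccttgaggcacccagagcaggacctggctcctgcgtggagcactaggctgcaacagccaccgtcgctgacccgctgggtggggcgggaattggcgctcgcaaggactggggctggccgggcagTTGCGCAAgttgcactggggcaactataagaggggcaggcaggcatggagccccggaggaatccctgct
Cfd: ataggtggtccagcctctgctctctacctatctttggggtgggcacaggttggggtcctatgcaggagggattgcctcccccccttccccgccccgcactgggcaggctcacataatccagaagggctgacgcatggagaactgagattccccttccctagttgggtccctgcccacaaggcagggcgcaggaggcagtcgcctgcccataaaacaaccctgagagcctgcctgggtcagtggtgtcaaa
Retn: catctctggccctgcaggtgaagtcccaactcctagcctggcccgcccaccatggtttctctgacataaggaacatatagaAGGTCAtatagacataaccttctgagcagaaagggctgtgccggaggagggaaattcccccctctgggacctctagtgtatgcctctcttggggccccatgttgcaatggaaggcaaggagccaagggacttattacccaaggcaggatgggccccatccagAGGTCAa
Pck1: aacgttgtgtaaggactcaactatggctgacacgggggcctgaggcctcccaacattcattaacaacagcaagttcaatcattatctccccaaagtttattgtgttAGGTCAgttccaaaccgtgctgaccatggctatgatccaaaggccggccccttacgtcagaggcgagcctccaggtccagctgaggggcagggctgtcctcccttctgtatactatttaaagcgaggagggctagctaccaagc

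The window searched was 250 bases before to 50 after the start. The letters TTGCNNAA, a core bound by C/EBP factors, were searched on both strands and occur in 10.6% of 33469 promoters. Among the 7 members they matched only Lep, as TTGCGCAA at -69 to -62. The hexamer AGGTCA, bound by nuclear receptors, was searched on both strands and occurs in 16.2% of promoters. It matched Retn at -169 to -164 and at -7 to -2, and Pck1 at -144 to -139. The direct repeat AGGTCANAGGTCA, which contains that hexamer and is the type PPARG binds with its partner, occurs in 0.0538% of promoters and in 0 of the 7. The letters TATAAA on the gene's strand occur in 8.8% of promoters and matched Cebpa at -35 to -30. Adipoq, Cfd and Pparg had no match. A match is a description of letters and says nothing of binding in these muscles.

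The secreted proteins come first. Adipoq encodes adiponectin, a hormone made by fat cells that acts on muscle and liver. Replicates 1 to 4 of Adipoq measured 3.54, 11.2, 19.6 and 11.1 CPM at 0 days and 11.9, 6.11, 4.45 and 10.1 CPM at 10 days. They measured 10.3, 17.5, 13.9 and 8.0 CPM at 30 days and 33.4, 30.3, 66.5 and 59.6 CPM at 60 days. All 4 libraries of 60 days stood above all 12 others, while the groups of 0, 10 and 30 days overlapped. The mean rose from 11.3 CPM ± 6.56 (SD, n = 4) at 0 days to 47.5 ± 18.3 at 60 days, a log2 fold change of 2.05 ± 0.42 (SE; edgeR adjusted p = 0.000730). Against 10 days the 60-day value was higher by 2.54 ± 0.43 (adjusted p = 0.000111) and against 30 days by 1.92 ± 0.42 (adjusted p = 0.00442). The values at 10 days (-0.48 ± 0.43, adjusted p = 0.338) and 30 days (0.13 ± 0.42, adjusted p = 0.802) were not called.

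Lep encodes leptin, the hormone that reports fat stores to the brain. Its replicates measured 0.675, 1.5, 2.59 and 0.671 CPM at 0 days and 1.36, 0.854, 0.560 and 1.63 CPM at 10 days. They measured 0.815, 1.42, 0.680 and 0.483 CPM at 30 days and 3.32, 2.08, 7.31 and 8.22 CPM at 60 days. Replicate 2 at 60 days lay below replicate 3 at 0 days, so these groups overlapped, whereas the 60-day libraries exceeded every library of 10 and 30 days. Lep was higher at 60 days than at 0 days by a log2 fold change of 1.92 ± 0.50 (SE; edgeR adjusted p = 0.00370). The difference was 2.56 ± 0.51 against 30 days (adjusted p = 0.00231). At 10 and 30 days the fold changes of -0.32 ± 0.52 and -0.65 ± 0.54 against 0 days were not called.

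Retn encodes resistin, which fat cells of rodents secrete. It measured 0.506, 2.53, 2.59 and 1.15 CPM at 0 days and 1.42, 0.427, 0.560 and 0.891 CPM at 10 days. It measured 0.638, 2.28, 1.52 and 0.764 CPM at 30 days and 4.89, 5.95, 9.94 and 7.64 CPM at 60 days. The 60-day libraries did not overlap with any other group. Their log2 fold change was 2.03 ± 0.46 (SE; edgeR adjusted p = 0.00146) against 0 days and 3.08 ± 0.48 (adjusted p = 5.05e-05) against 10 days. The 10-day mean was 0.825 CPM ± 0.443 (SD, n = 4) against 1.69 ± 1.03 at 0 days, a log2 fold change of -1.05 ± 0.51 that was not called (edgeR adjusted p = 0.0805). DESeq2 called it (-1.08, adjusted p = 0.0452), and so did the edgeR fit without replicate 1 of 0 days (-1.33, adjusted p = 0.0238) and that without replicate 1 of 10 days (-1.46, adjusted p = 0.0315).

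Cfd encodes adipsin, a serine protease of the complement system secreted by fat cells. Its replicates measured 7.76, 23.8, 31.6 and 17.3 CPM at 0 days and 25.2, 18.1, 17.6 and 24.9 CPM at 10 days. They measured 23.1, 32.3, 34.2 and 22.5 CPM at 30 days and 34.7, 36.7, 73.2 and 63.0 CPM at 60 days. All 60-day libraries were above all others, but replicate 1 at 60 days exceeded replicate 3 at 30 days by a narrow margin. Cfd was higher at 60 days by a log2 fold change of 1.36 ± 0.33 (SE; edgeR adjusted p = 0.00266) against 0 days. Against 30 days the 0.89 ± 0.33 did not pass (edgeR adjusted p = 0.0627), although DESeq2 (adjusted p = 0.0241) and the edgeR fits without replicate 1 of 0 days (0.0230), replicate 3 of 0 days (0.0457) or replicate 1 of 60 days (0.0441) called it. At 10 days (0.084 ± 0.33) and 30 days (0.47 ± 0.33) it was not called against 0 days, and the 30-day value was called with library totals (0.96, adjusted p = 0.0169).

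**Figure D2:**
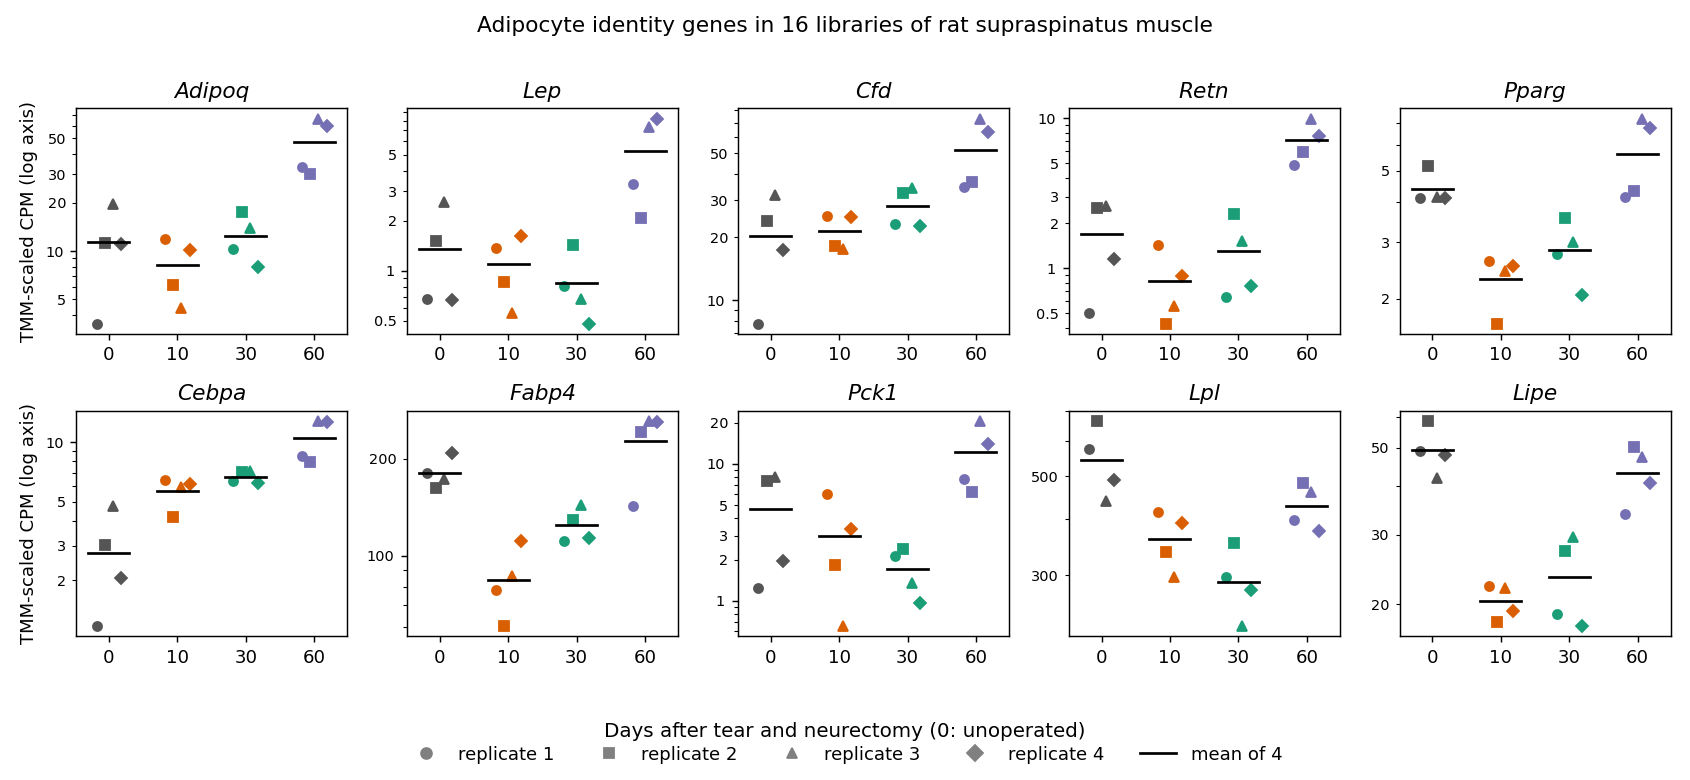
Each panel plots the TMM-scaled CPM of 1 member on a log axis in the 4 libraries of each group, with markers for replicates 1 to 4 and a bar at the mean. Adipoq, Cfd, Retn and Cebpa have all 4 libraries of 60 days above the other 12. Replicates 3 and 4 at 60 days are the highest pair of that group in Adipoq, Lep, Cfd, Retn, Pparg, Cebpa, Fabp4 and Pck1.

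The transcription factors Pparg and Cebpa followed different courses. Pparg encodes the nuclear receptor that drives fat cell formation. It measured 4.10, 5.17, 4.15 and 4.12 CPM at 0 days and 2.61, 1.68, 2.44 and 2.52 CPM at 10 days. It measured 2.76, 3.56, 3.00 and 2.05 CPM at 30 days and 4.15, 4.32, 7.25 and 6.80 CPM at 60 days. Every library of 10 and 30 days lay below every library of 0 days and of 60 days. Pparg fell by 10 days, with a log2 fold change of -0.92 ± 0.22 (SE; edgeR adjusted p = 0.00132), and was still lower at 30 days (-0.62 ± 0.21, adjusted p = 0.0182). The 60-day value of 0.35 ± 0.21 did not pass (adjusted p = 0.157) but was called with library totals (0.77, adjusted p = 0.00531), and in that group replicates 1 and 2 lay within the range of 0 days and replicates 3 and 4 above it. From 30 to 60 days Pparg rose by 0.97 ± 0.21 (adjusted p = 0.00408). The fall at 10 days was not called with library totals (-0.27, edgeR adjusted p = 0.282). The fall at 30 days was not called with library totals (-0.13), with upper-quartile factors (-0.49), without replicate 2 of 0 days (-0.52) or without replicate 4 of 30 days (-0.50).

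Cebpa encodes C/EBPA, the partner of PPARG in the mature fat cell, which is also used in other cells such as those of the myeloid lineage. It measured 1.18, 3.01, 4.73 and 2.06 CPM at 0 days and 6.47, 4.17, 5.90 and 6.12 CPM at 10 days. It measured 6.34, 7.05, 7.16 and 6.23 CPM at 30 days and 8.53, 7.91, 12.8 and 12.6 CPM at 60 days. The group at 10 days overlapped with 0 days by 1 pair of libraries, and the groups at 30 and 60 days did not overlap with it. Cebpa was higher at 10 days by a log2 fold change of 1.02 ± 0.29 (SE; edgeR adjusted p = 0.00519), at 30 days by 1.27 ± 0.29 (adjusted p = 0.00109) and at 60 days by 1.91 ± 0.29 (adjusted p = 3.91e-05). It was higher at 60 than at 10 days by 0.88 ± 0.27 (adjusted p = 0.00942). The 0.64 ± 0.27 from 30 to 60 days was not called (adjusted p = 0.0943), and 3 of 26 alternatives called it. Macrophage markers moved at the same times. Of 11, 10 were higher at 10 days (33.3% of all genes), 11 at 30 days (33.7%) and 11 at 60 days (29.9%). Their summed level was 47.9 to 78.7 CPM at 0 days, 144 to 191 CPM at 10 days, 212 to 254 CPM at 30 days and 175 to 310.3 CPM at 60 days, and no macrophage marker was at 0 in all libraries of a group. The part of macrophages in the Cebpa level was not tested.

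The genes of lipid handling differed from the hormones. Fabp4 encodes a carrier of fatty acids inside fat cells, macrophages and capillary endothelium. It measured 180.5, 163, 174 and 209 CPM at 0 days and 77.9, 60.4, 86.5 and 111 CPM at 10 days. It measured 111, 129, 144 and 114 CPM at 30 days and 143, 243, 263 and 261 CPM at 60 days. The groups of 10 and 30 days lay below that of 0 days without overlap, and 3 of the 4 libraries at 60 days lay above it. Fabp4 fell at 10 days by a log2 fold change of -1.11 ± 0.19 (SE; edgeR adjusted p = 9.30e-05), and its 30-day value was -0.54 ± 0.19 (adjusted p = 0.0186). At 60 days the 0.33 ± 0.19 was not called (adjusted p = 0.143), but without replicate 1 of 60 days it was called (0.49, edgeR adjusted p = 0.0115). It was also called with library totals (0.74, adjusted p = 0.00328) and with upper-quartile factors (0.47, adjusted p = 0.0463). Fabp4 was the 1 member called between 10 and 30 days (0.57 ± 0.19, edgeR adjusted p = 0.0204). That call was lost with library totals (0.40), with the title letter as a covariate (0.49), without replicate 2 of 10 days (0.44) and without replicate 3 of 30 days (0.49). The fall at 30 days was lost with library totals (-0.055), with upper-quartile factors (-0.42), without replicate 4 of 0 days (-0.46) and without replicate 1 of 30 days (-0.49).

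Capillary endothelial markers are given beside Fabp4. Of 11 markers, 10 were lower at 10 days (29.4% of all genes) and 4 at 30 days (30.9%). At 60 days 1 was higher (29.9%) and 2 were lower (29.1%). Their summed level was 467 to 537 CPM at 0 days, 248 to 372 CPM at 10 days, 370 to 434 CPM at 30 days and 407 to 620.5 CPM at 60 days. Replicate 1 of 60 days, the lowest of its group in Fabp4, was also the lowest of its group in this sum, at 407 CPM. With library totals 0 of the 11 markers were higher and 2 lower at 10 days, with a median of 0.072 in place of -0.59. At 30 days library totals gave 4 higher and 1 lower, with a median of 0.14 in place of -0.35. At 60 days 9 were higher and 0 lower. All 11658 genes then gave 8166 and 1182, 7362 and 1392, and 6738 and 1407. Their medians were 0.72, 0.54 and 0.45. None of the markers was at 0 in all libraries of a group, and the part of endothelium in the Fabp4 level was not tested.

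Lpl encodes lipoprotein lipase, which frees fatty acids from circulating triglyceride. Its level was 440 to 665 CPM at 0 days (median 533), 297 to 415 CPM at 10 days (366), 231 to 353 CPM at 30 days (287) and 377 to 481 CPM at 60 days (429.5). The groups of 10 and 30 days lay below 0 days without overlap, and the group of 60 days overlapped with it. Lpl fell at 10 days (-0.59 ± 0.15 SE on the log2 scale, edgeR adjusted p = 0.00228) and was lower at 30 days (-0.91 ± 0.15, adjusted p = 5.68e-05). The -0.34 ± 0.15 at 60 days was not called (adjusted p = 0.0572), and 8 of 26 alternatives called it, among them DESeq2 (-0.35, adjusted p = 0.0462). With library totals the 10-day value was 0.067 and the 60-day value 0.067, neither of them called.

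Lipe encodes hormone-sensitive lipase, which breaks down stored lipid in fat cells and muscle fibres. Its level was 41.9 to 58.5 CPM at 0 days (median 48.5), 18.0 to 22.2 CPM at 10 days (20.6), 17.6 to 29.7 CPM at 30 days (23.1) and 34.0 to 50.4 CPM at 60 days (43.96). The libraries of 10 and 30 days all lay below those of 0 and of 60 days. Lipe fell at 10 days by a log2 fold change of -1.28 ± 0.17 (SE; edgeR adjusted p = 5.26e-06). It was lower at 30 days as well (-1.08 ± 0.16, adjusted p = 3.32e-05), and the -0.20 ± 0.16 at 60 days was not called (adjusted p = 0.304). From 30 to 60 days it rose by 0.88 ± 0.16 (adjusted p = 0.00164). The 60-day difference from 0 days was 0.21 with library totals (adjusted p = 0.237). Muscle fibre markers moved at the same times. Of 11, 10 were lower at 10 days (29.4% of all genes), 8 at 30 days (30.9%) and 6 at 60 days (29.1%). At these times 1, 1 and 2 of the markers were higher (33.3%, 33.7% and 29.9% of all genes). Their summed level was 76958 to 82198 CPM at 10 days and 129123 to 186872 CPM at 30 days, and their part in the levels of Lpl and Lipe was not tested. With library totals 10, 6 and 4 of the muscle fibre markers were lower and 1, 2 and 3 higher at 10, 30 and 60 days. Of all 11658 genes, that scale called 1182, 1392 and 1407 lower and 8166, 7362 and 6738 higher.

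Pck1 encodes the cytosolic phosphoenolpyruvate carboxykinase, which in fat cells supplies glycerol phosphate for triglyceride. It measured 1.24, 7.45, 8.08 and 1.96 CPM at 0 days and 6.01, 1.84, 0.659 and 3.35 CPM at 10 days. It measured 2.13, 2.40, 1.36 and 0.965 CPM at 30 days and 7.70, 6.23, 20.6 and 13.9 CPM at 60 days. The 0-day libraries fell into a low and a high pair that overlapped with every other group, and the 60-day libraries lay above all of 30 days. Against 0 days no time was called: the log2 fold changes were -0.67 ± 0.62, -1.44 ± 0.65 (edgeR adjusted p = 0.0625) and 1.34 ± 0.60 (adjusted p = 0.0674) at 10, 30 and 60 days. Against 30 days the 60-day level was higher by 2.78 ± 0.65 (adjusted p = 0.00663), the largest of the members' differences between these times, and against 10 days by 2.01 ± 0.61 (adjusted p = 0.0101). The 60-day value against 0 days was called with limma-voom (1.51, adjusted p = 0.0450), upper-quartile factors (1.49), library totals (1.76), without replicate 3 of 0 days (1.73) and without replicate 3 of 10 days (1.34). The 30-day value was called without replicate 1 of 0 days (-1.74), without replicate 4 of 0 days (-1.69), without replicate 1 of 10 days (-1.44) and without replicate 3 of 10 days (-1.44).

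The members differed in how much the libraries of 1 group varied. The SD of log2 CPM within groups was 1.05 for Pck1, 0.78 for Lep, 0.78 for Retn, 0.71 for Adipoq and 0.56 for Cfd. The median over all genes tested was 0.19, and these 5 members lay at its 99.7th, 98.7th, 98.6th, 97.8th and 93.6th percentiles. Cebpa was at 0.47 (89.3rd percentile), Pparg at 0.31, Fabp4 at 0.30, Lipe at 0.26 and Lpl at 0.23, the last at the 58.3rd percentile. Counting error alone, at the mean count of each gene, gave an SD of 0.20 for Lep, 0.18 for Retn, 0.13 for Pck1 and 0.067 for Adipoq. Within the unoperated group, Adipoq ran from 3.54 to 19.6 CPM, and without replicate 1 from 11.1 to 19.6 CPM. Pck1 ran from 1.24 to 8.08 CPM there, and without replicate 1 from 1.96 to 8.08 CPM.

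The libraries that were high in Adipoq within a group were also high in several other members. In edgeR, the slope of each gene on the log2 CPM of Adipoq, with the group kept in the model, was called positive for 4 of the 9 other members and for 0.112% of all genes tested. The slope was 0.73 ± 0.076 (SE; edgeR adjusted p = 0.000236) for Cfd, 1.07 ± 0.17 (adjusted p = 0.0162) for Lep, 1.32 ± 0.21 (adjusted p = 0.0180) for Pck1 and 0.99 ± 0.17 (adjusted p = 0.0231) for Retn. A slope of 1 would mean equal changes on the log2 scale. Cebpa (0.52 ± 0.11, adjusted p = 0.110), Pparg (0.25 ± 0.11, 0.632), Fabp4 (0.12 ± 0.10, 0.806), Lipe (0.060 ± 0.095, 0.894) and Lpl (0.020 ± 0.087, 0.97) were not called. Replicate 1 at 0 days and replicate 3 at 10 days had the deviations of Adipoq from its group mean that lay farthest from the median deviation, -1.43 and -0.76 on the log2 scale. Without both, Lep and Cfd were called and Retn (1.03, adjusted p = 0.125) and Pck1 (1.22, adjusted p = 0.138) were not. Leaving out single libraries gave from 1 to 5 called members. Cfd was called in each of these fits.

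**Figure D3:**
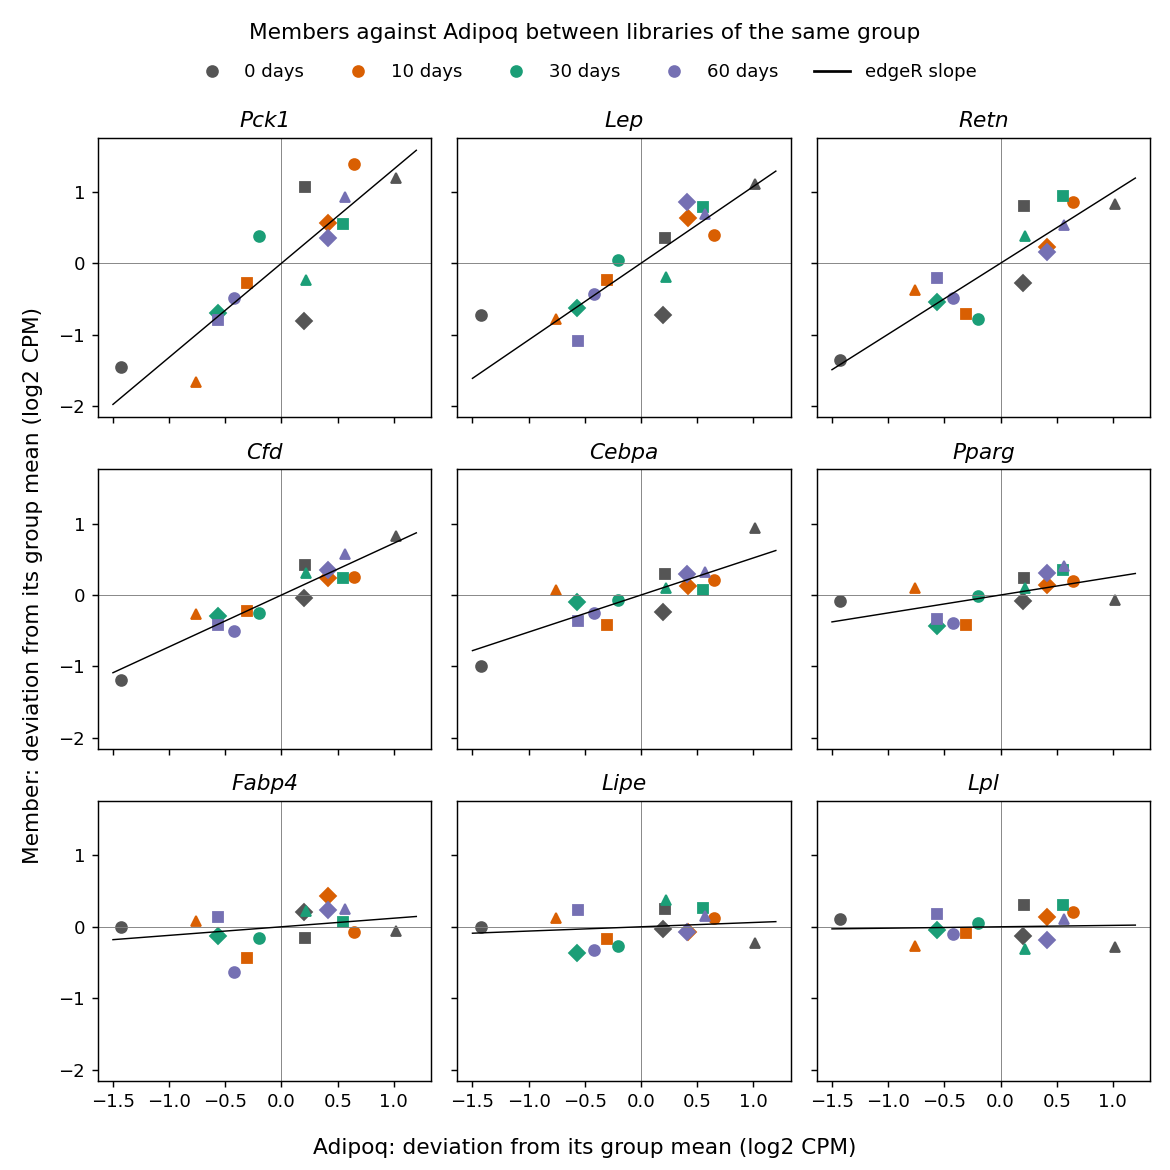
Each panel plots, for 1 member, the deviation of its log2 CPM from its group mean against that of Adipoq in the 16 libraries, coloured by time, with the edgeR slope as a line. Points of Cfd, Lep, Retn and Pck1 rise along lines with slopes of 0.73 to 1.32, and those of Fabp4, Lipe and Lpl lie along nearly flat lines with slopes of 0.12 or less.

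In all, 13 genes had a called slope on Adipoq. Besides the 4 members they were Cidec and Plin1, which coat lipid droplets, the vitamin A carrier Rbp4, the beta-3 adrenergic receptor Adrb3, Prkar2b, a regulatory subunit of protein kinase A, Trarg1 (listed as Tusc5), Cdo1, Ankef1 and Lgals12. Among genes with a symbol and a mean of at least 1 CPM, the 10 most like Adipoq were ranked by Pearson's r of deviations from the group means over the 16 libraries, given here as a description with no p. They were Cidec (0.96), Trarg1 (0.95), Rbp4 (0.95), Cdo1 (0.94), Cfd (0.94), Cdc42ep5 (0.93), Ankef1 (0.93), Plin1 (0.92), Fam180a (0.90) and Prkar2b (0.90). Adrb3 had an r of 0.91 but a mean of 0.784 CPM, under that limit. The points share their libraries and scaling factors. Markers of other cell types also leaned towards positive slopes, although 0 were called. The slope was positive for 9 of 9 fibroblast markers (median 0.31) and 11 of 11 macrophage markers (median 0.26). It was positive for 10 of 11 muscle fibre markers (median 0.063) and 9 of 11 endothelial markers (median 0.028), and for 48.6% of all genes tested (median -0.0026). The 13 adipocyte-enriched genes described next had 12 positive slopes, 6 of them called, with a median of 0.26. The part of these other cell types in the slopes of the members was not tested.

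Other adipocyte-enriched genes, a list of 17 of which 15 were in the table and 13 were tested, split into a rising and a falling group. At 60 days 7 were higher and 4 lower than at 0 days (29.9% and 29.1% of all genes). Their median log2 fold change was 1.29, against 0.040 for all genes. Sncg, gamma-synuclein, rose from 14.2 CPM ± 3.11 (SD, n = 4) to 121 ± 56.1 at 60 days, by 3.09 ± 0.28 (SE; edgeR adjusted p = 2.96e-07). Rbp4 rose by 1.90 ± 0.44 (adjusted p = 0.00183) and Cidec by 1.85 ± 0.50 (adjusted p = 0.00502). Unlike Rbp4 and Cidec, Sncg had no called slope on Adipoq within groups (0.036 ± 0.16 SE, edgeR adjusted p = 0.97). Gpd1, the cytosolic glycerol-3-phosphate dehydrogenase, is also strongly used in muscle. Its mean went from 1599 CPM ± 30.3 (SD, n = 4) in unoperated muscle to 75.2 ± 3.77 by 10 days and 316 ± 5.17 by 60 days. Gpd1 was lower at 60 days by a log2 fold change of -2.34 ± 0.17 (SE; edgeR adjusted p = 2.73e-08). Aqp7, a glycerol channel, and Pnpla3, a lipid droplet protein, were also lower at 60 days (-1.63 ± 0.39 and -1.18 ± 0.20). Both were lower at 10 days (-2.63 ± 0.41 and -2.81 ± 0.21) and at 30 days (-1.70 ± 0.39 and -1.80 ± 0.20) as well. At 10 days 2 of the 13 were higher and 4 lower (33.3% and 29.4% of all genes), as at 30 days (33.7% and 30.9%). Cidea, a lipid droplet protein, was higher at 10 days (2.18 ± 0.22) and 30 days (2.34 ± 0.22). Its mean was 2.71 CPM ± 1.03 (SD, n = 4) at 0 days and 7.87 ± 0.569 at 60 days. From 10 to 60 days Cidea changed by -0.62 ± 0.20 (SE). In that comparison 11 of the 13 rose and 2 fell (29.1% and 31.9% of all genes), with a median of 1.75. Scaled by library totals, 3 were higher and 4 lower at 10 days, with a median of 0.25 in place of -0.41. The counts were then 3 and 4 at 30 days, 7 and 3 at 60 days, and 8 and 2 from 10 to 60 days. In these comparisons, that scale gave 8166 and 1182 (median 0.72), 7362 and 1392, 6738 and 1407, and 2058 and 5305 of all 11658 genes.

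**Figure D4:**
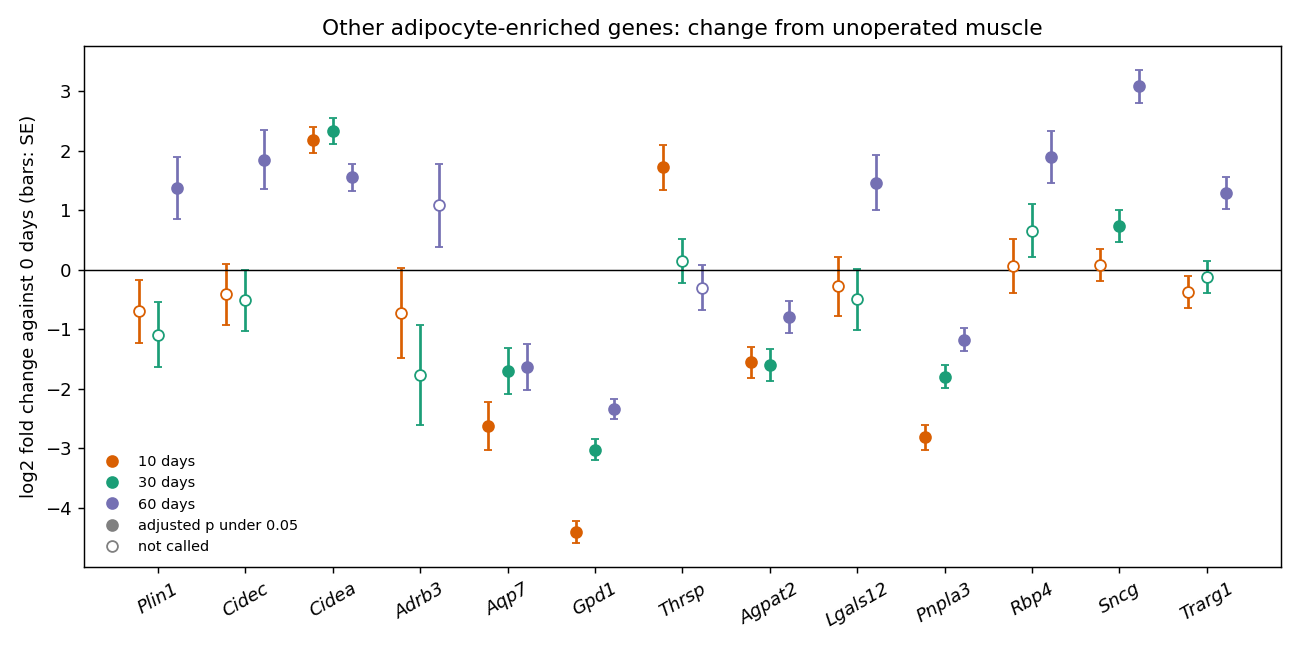
The plot gives the log2 fold change against 0 days of the 13 tested adipocyte-enriched genes that are not members, with bars of 1 SE and filled points for calls. Sncg at 3.09, Rbp4 at 1.90 and Cidec at 1.85 are the highest at 60 days, and Gpd1 at -4.41 is the lowest at 10 days.

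Regulators known to promote fat cell formation were mostly lower with TMM factors. Of 15, 1 was higher and 9 lower at 10 days (33.3% and 29.4% of all genes). The counts were 1 and 11 at 30 days (33.7% and 30.9%), and 2 and 9 at 60 days (29.9% and 29.1%). The median log2 fold changes were -0.44, -0.49 and -0.68 at these times. With library totals the 10-day counts were 6 higher and 1 lower, with a median of 0.21, below the 0.72 of all genes. The 30- and 60-day counts were 3 and 6, and 2 and 7. All 11658 genes then gave 8166 and 1182, 7362 and 1392, and 6738 and 1407. Rxra, the receptor that pairs with PPARG, went from 89.0 CPM ± 2.41 (SD, n = 4) in unoperated muscle to 16.9 ± 8.09 at 60 days (-2.39 ± 0.23 SE, edgeR adjusted p = 7.04e-07). Cebpd, which acts early in fat cell formation, fell by 10 days (-1.96 ± 0.26, edgeR adjusted p = 7.96e-06) and stayed below 0 days at 30 days (-1.62 ± 0.26, adjusted p = 5.29e-05). Klf5, a factor of early fat cell formation that many cells use, was higher at 10, 30 and 60 days (1.79 ± 0.25, 2.30 ± 0.25 and 2.22 ± 0.25). Ebf2, a factor of fat cell progenitors, was higher at 60 days (1.07 ± 0.24, edgeR adjusted p = 0.00112).

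Of 9 tested regulators that restrain fat cell formation, 3 were higher and 4 lower at 10 days (33.3% and 29.4% of all genes). The counts were 3 and 3 at 30 days (33.7% and 30.9%), and 4 and 0 at 60 days (29.9% and 29.1%). Scaled by library totals, the counts were 5 and 2, 5 and 0, and 5 and 0. Of all 11658 genes, that scale called 8166 and 1182, 7362 and 1392, and 6738 and 1407. Dlk1, a surface protein of preadipocytes, was higher at all 3 times (1.35 ± 0.33, 2.19 ± 0.33 and 1.63 ± 0.34). Hes1, a target of Notch signalling, was also higher at 10, 30 and 60 days (0.65 ± 0.18, 0.77 ± 0.18 and 1.23 ± 0.18, edgeR adjusted p = 2.59e-05 at 60 days). Fibroblast and fibro-adipogenic progenitor markers, the cells from which muscle fat cells arise, were higher in 5 of 9 tested at 10 days. At that time 1 was lower, against 33.3% of all genes higher and 29.4% lower. At 30 days (33.7% and 30.9%) and at 60 days (29.9% and 29.1%) 8 of 9 were higher and 0 lower. The lower one, Dpp4 (-0.73, edgeR adjusted p = 0.00569), was not called with library totals (-0.075). Their summed level was 479 to 999 CPM at 0 days, 884 to 2507 CPM at 10 days, 1459 to 2305 CPM at 30 days and 1372 to 2871 CPM at 60 days. Of the 10, 1 was at 0 in all libraries of each group, and whether its RNA was absent or not counted cannot be told. The part of these cells in the rise of the adipocyte hormones was not tested.

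Adipor1 and Adipor2, the adiponectin receptors, were lower at 60 days by log2 fold changes of -1.17 ± 0.093 (SE; edgeR adjusted p = 5.02e-08) and -1.95 ± 0.26 (adjusted p = 1.67e-05). Both were lower at 30 days as well (-1.27 ± 0.093 and -1.69 ± 0.26). Lepr, the leptin receptor, rose from 1.53 CPM ± 0.328 (SD, n = 4) at 0 days to 2.97 ± 0.951 at 60 days (0.97 ± 0.25 SE, edgeR adjusted p = 0.00375). Of the 5 receptors and adaptors in the list, 0 were called at 10 days, when 33.3% of all genes were higher and 29.4% lower. At 30 and at 60 days 1 was higher (33.7% and 29.9%) and 2 were lower (30.9% and 29.1%). With library totals 3 were higher and 0 lower at 10 days, and 3 were higher and 2 lower at 30 and at 60 days. That scale called 8166 and 1182, 7362 and 1392, and 6738 and 1407 of all 11658 genes.

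Among 12 tested partners of Lpl and Lipe in triglyceride breakdown, 0 were higher and 4 lower at 10 days (33.3% and 29.4% of all genes). The counts were 1 and 6 at 30 days (33.7% and 30.9%), and 3 and 5 at 60 days (29.9% and 29.1%). With library totals the counts were 6 and 4, 6 and 4, and 4 and 3. All 11658 genes then gave 8166 and 1182, 7362 and 1392, and 6738 and 1407. Gpihbp1, the endothelial anchor of lipoprotein lipase, went from 14.8 CPM ± 2.87 (SD, n = 4) in unoperated muscle to 4.15 ± 0.712 at 10 days (-1.84 ± 0.25 SE, edgeR adjusted p = 1.02e-05). It rose again from 10 to 60 days by 1.61 ± 0.25 (edgeR adjusted p = 4.90e-05). The fatty acid carrier Cd36 was lower at 10 days (-1.44 ± 0.16) and at 30 days (-1.10 ± 0.16). G0s2, an inhibitor of triglyceride lipase, was lower at 10 days (-1.80 ± 0.47) and higher at 30 days (1.29 ± 0.44). Abhd5, its activating counterpart, was lower at 30 and 60 days (-1.05 ± 0.15 and -1.09 ± 0.16), and Prkar2b was higher at 60 days (1.75 ± 0.39). Pnpla2, the first lipase of fat breakdown, is listed at 0 in all 16 libraries and was not tested. It is named because of that value, outside the rule for named genes. Whether its RNA was absent or was not counted in the processing cannot be told from that value.

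Of 6 genes that share glycerol phosphate metabolism with Pck1, 2 were higher and 3 lower at 10 days (33.3% and 29.4% of all genes). The counts were 2 and 4 at 30 days (33.7% and 30.9%), and 2 and 3 at 60 days (29.9% and 29.1%). Scaled by library totals, the counts were 3 and 2 (median 0.45 in place of -0.21), 2 and 2, and 2 and 3. All 11658 genes then gave 8166 and 1182 (median 0.72), 7362 and 1392, and 6738 and 1407. Pck2, the mitochondrial form of the enzyme, was higher at 10, 30 and 60 days (0.58 ± 0.15, 0.46 ± 0.15 and 0.62 ± 0.15 SE). Its edgeR adjusted p at 60 days was 0.00197. Glycerol kinase Gk was also higher at these times (1.51 ± 0.19, 1.06 ± 0.19 and 0.52 ± 0.19, edgeR adjusted p = 3.59e-06 at 10 days). The mitochondrial glycerol-3-phosphate dehydrogenase Gpd2 was lower at 10, 30 and 60 days (-2.09 ± 0.18, -2.43 ± 0.19 and -2.00 ± 0.18). Pyruvate carboxylase Pcx was lower at 10, 30 and 60 days (-0.81 ± 0.10, -1.10 ± 0.11 and -1.33 ± 0.11, edgeR adjusted p = 5.52e-08 at 60 days).

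Some markers of brown fat, the heat-producing kind, were nearly absent. Ucp1 and Lhx8, 2 of the 8 listed, were at 0 in all 4 libraries of 0 days. At 60 days their means over the 4 libraries were 0.0403 CPM and 0.0261 CPM. In 1 library 3 counts give 0.0752 to 0.175 CPM, and a mean can lie under that level while 1 of its libraries exceeds it. At 10 days the mean of Ucp1 was 0.131 CPM ± 0.261 (SD, n = 4), all of it from 1 library. Prdm16 was not in the table, and of the 7 brown fat markers there, 3 were tested: Elovl3, Cox8b and Ppargc1b. Ppargc1b was lower at 10 days (-0.69 ± 0.24) and 30 days (-0.57 ± 0.24). At 60 days 0 of the 3 were called, when 29.9% of all genes were higher and 29.1% lower. With library totals 1 was lower at 10 days, and 1 was higher at 30 and at 60 days (1182, 7362 and 6738 of all 11658 genes). Cox8b, which muscle also uses, fell by 10 days (-1.36 ± 0.15), and its 60-day value of -0.10 ± 0.15 was not called.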

How the data were processed

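Messenger RNA of supraspinatus muscle was sequenced in 16 libraries, 4 for each time; RNA was extracted with a miRNeasy kit and libraries were built with a TruSeq kit, per the labels' protocols. The authors deposited expected counts, fragments per gene not scaled for depth or length, of which 233 of 17147 genes have fractional values. The submitters' processing notes name bcl2fastq 1.8.4, FastQC, TopHat2 2.0.9, Bowtie2 2.1.0.0, Cufflinks, Cuffdiff 2.1.1 and the genome build rn5. The annotation, strand setting and filters are not given in the sources used here, so reads of overlapping genes on the 2 strands cannot be told apart.

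Counts were rounded to whole numbers. The edgeR filter filterByExpr kept 11658 genes and left out 5489. TMM factors and a robust quasi-likelihood fit (edgeR 4.0.16, R 4.3.3) over all 16 libraries, with 12 residual degrees of freedom, gave 6 comparisons of times, a joint test and a slope on Adipoq within groups. P-values were adjusted over all genes tested by the Benjamini-Hochberg method, at 0.05. An SE is the log2 fold change divided by the square root of its F. A prior count of 2 was used for log2 CPM, and the edgeR fold changes kept that program's default prior count. The level of 3 counts in a library was set as a floor for low values, although a library can hold fewer counts. The fits were tested on simulated data. Alternatives were RLE, upper-quartile and library-total scaling, DESeq2 1.42.0, limma-voom 3.58.1, other filters on low counts, a prior count of 0.5, only the 2 groups compared, the replicate number or the letter in the titles as a covariate, leaving out each library, and for the slope leaving out the 2 libraries whose Adipoq deviation lay farthest from the median deviation.

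All members are named. From each list, up to 3 higher and 3 lower genes with the largest change among those called and a mean of at least 1 CPM could be named per comparison. The members and lists were chosen with earlier results of these data known.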

Additional observations from a re-analysis of the deposited data

Results flagged for a closer look

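In 2 of the 40 groups of 4 libraries examined (10 genes at 4 times), 1 library stood far from the other 3, and chance alone marks about 5% of such groups. Replicate 2 of unoperated muscle had 5.17 CPM of Pparg, above the 4.10 to 4.15 CPM of the others. Replicate 1 at 60 days had 143 CPM of Fabp4, below the 243 to 263 CPM of the others, and was also the lowest of its group in the sum of endothelial markers.

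For 6 members the fitted difference from unoperated muscle had opposite signs at 2 times and the difference between those times was itself called by edgeR. In no case did that fit call both differences from unoperated muscle. The values below 0 of Adipoq, Lep, Retn and Pck1 were not called, nor were the 60-day values of Pparg, Fabp4 and Pck1. For Adipoq the 60-day level exceeded the 10-day level by 2.54 on the log2 scale. For Lep the 60-day level was higher by 2.56 than at 30 days and by 2.24 than at 10 days. For Retn these differences were 2.40 and 3.08, and for Pparg 0.97 and 1.28. For Fabp4 they were 0.87 and 1.44, and for Pck1 2.78 and 2.01. With library totals, the 10-day values of Adipoq and Lep and the 30-day value of Retn were above 0. The sign of these 3 values thus depended on the scaling, and neither scaling called them.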

How the results depend on the processing

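Each value was recomputed under 26 alternatives, the slopes under their own set. The calls of Adipoq, Lep, Cfd, Retn and Cebpa at 60 against 0 days, of 8 members at 60 against 30 days and of 9 at 60 against 10 days passed in all of them, as did those of Cebpa, Fabp4 and Lipe at 10 days and of Cebpa, Lpl and Lipe at 30 days. With library totals, the members called against 0 days numbered 3 at 10 days and 8 at 60 days, and the 1 member called between 10 and 30 days was Lpl, lower, in place of Fabp4, higher. Directions reversed under library totals at 10 days for Adipoq (0.18), Lep (0.34) and Lpl (0.067), at 30 days for Retn (0.11), at 60 days for Lpl (0.067) and Lipe (0.21), and at 60 against 10 days for Lpl (-0.00047). With upper-quartile factors 3 members were called at 30 days. Between 30 and 10 days, 2 members were called with the replicate block (Fabp4 and Lpl), 0 with the title letter as a covariate, and 0 to 2 when single libraries were left out. The block also took the slope of Lep on Adipoq to an adjusted p of 0.115. Libraries with the same number had a mean correlation of 0.0013 over 24 pairs (-0.24 to 0.22), and 3 of 16 correlated best with their own number, so the numbers were not taken to pair them. The slope on Adipoq was called for 2 members without the 2 libraries farthest from the median deviation of Adipoq (replicate 1 of 0 days and replicate 3 of 10 days) and for 1 to 5 when single libraries were left out: 1 without replicate 3 of 0 days, 2 without replicate 1 of 0 days, 1 of 10 days, 2 or 4 of 30 days, or 1 or 3 of 60 days, and 5 without replicate 3 of 10 days. Leaving out single libraries reversed uncalled values: Lep at 10 days ran from -0.56 to 0.18, Cfd at 10 days from -0.17 to 0.39, Adipoq at 30 days from -0.15 to 0.53 and the slope of Lpl from -0.028 to 0.0995. Apart from the effect of scaling and of fewer libraries, the cause was not tested. Depth limits Lep and Retn most, with a mean of 49.9 and 62.1 fragments per library.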

Other observations

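Genes outside the lists that were most like Adipoq across libraries also differed by time. Cdo1, a cysteine dioxygenase abundant in fat, averaged 10.0 CPM in unoperated muscle, 8.57 CPM at 10 days, 10.1 CPM at 30 days and 34.8 CPM at 60 days. Its log2 fold change at 60 days was 1.78 (edgeR adjusted p = 0.000980), and those at 10 days (-0.24) and 30 days (0.00091) were not called. Ankef1 was also highest at 60 days, with means of 1.95, 1.45, 1.09 and 6.66 CPM at 0, 10, 30 and 60 days (1.74 at 60 against 0 days, edgeR adjusted p = 0.0129). Fam180a differed from them: it was higher at 10 days by 1.35 (adjusted p = 0.00137), at 30 days by 2.18 (adjusted p = 1.32e-05) and at 60 days by 2.04 (adjusted p = 4.62e-05). Cdc42ep5 was lower at 10 days (-0.79, adjusted p = 0.0392) and was not called at 60 days (0.40, adjusted p = 0.271).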
